A study of Mus musculus with 54 samples.

Results

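The tetraspanins are described here through 9 genes, Cd9, Cd37, Cd53, Cd63, Cd81, Cd82, Cd151, Tspan3 and Tspan4, listed by symbol and all found in the tables, out of 43280 gene symbols. They were followed across 54 single mouse lung cells, each labelled as an interstitial macrophage, a macrophage of the lung tissue outside the airspaces. Each cell has a table of TPM (a transcript level corrected for gene length and scaled to the same total in every cell), made from full-length cDNA. The labels give no genotype, strain, age, treatment, animal or batch. The cells were therefore treated as 1 sample, cells are not replicates, and no comparison below has a p-value.

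Cells were divided by a score, the mean log2(TPM + 1) of Prg4 (lubricin), Alox15 (a lipoxygenase) and Fn1 (fibronectin). It was 7 or more in 23 cells and under 7 in 31. The score is a measured range and not a cell type. It separated most cells widely: 21 lay above 9 and 29 under 2, while cells 1 and 29 were just under the threshold at 4.86 and 5.34 and cells 31 and 20 just above it at 7.31 and 7.76. The label of macrophage was checked against C1qa, Csf1r and 8 other macrophage genes. Of the 54 cells, 53 had at least 3 of these 10 at 10 TPM or more. The 10 genes were not equally common. C1qb reached that level in 23 cells with a score of 7 or more and in 29 under 7. Mertk did so in 5 and 7 cells and Fcgr1 in 3 and 5. Of 12 further genes known from macrophages of the serous cavities (the pleural and peritoneal spaces), at least 3 reached 10 TPM in 22 of the 23 high-score cells and in 5 of the 31 others. High-score cells also held more genes at 10 TPM or more, with a median of 1877 against 1413, and more Lyz2 (a median of 14.8% of the TPM against 2.63%). Cells 1, 31, 36, 40, 43 and 48 had 3 or more markers of another type, namely alveolar macrophage in 31 and 40, monocyte in the other 4, and T or NK cell in 36 as well.

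Tetraspanins are small proteins that cross the membrane in 4 passes and gather integrins, immunoglobulin superfamily proteins, proteases and immune receptors into clusters in the plane of the membrane. CD9 and CD81 are close relatives of the cell surface that take part in adhesion and motility and restrain the fusion of macrophages. CD37 and CD53 are found mainly on leukocytes. CD63 sits mostly in late endosomes and lysosomes and is carried to the surface and on to secreted vesicles. CD151 binds laminin-binding integrins, CD82 is known in human tumours as a suppressor of metastasis, and TSPAN4 is a component of migrasomes, vesicle-bearing structures left behind by moving cells.

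Promoter windows are shown for Cd9, Cd37 and Cd63, since these are the members whose levels differed most between the score groups, with Cd63 in the opposite direction to the others. They were taken from RefSeq on GRCm38.p6 and hold the 300 bases around the transcript start, read 5′ to 3′. The build used by the authors is not given in the sources used here, and the windows were matched by symbol. Capitals mark matches, on either strand, to the GC box GGGCGG, the TATA box letters TATAAA, the box CCAAT, the ETS core letters GGAAGT, the E-box CACGTG of the type bound by TFEB and MITF, or the AP-1 letters TGANTCA.
Cd9 (chr6:125494711-125495010, minus strand): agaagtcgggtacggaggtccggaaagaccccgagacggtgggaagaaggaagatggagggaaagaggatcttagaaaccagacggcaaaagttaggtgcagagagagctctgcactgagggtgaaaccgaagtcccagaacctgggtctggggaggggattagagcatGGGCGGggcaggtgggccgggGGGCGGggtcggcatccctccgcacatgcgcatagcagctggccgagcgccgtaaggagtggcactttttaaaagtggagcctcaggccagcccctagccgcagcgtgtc
Cd37 (chr7:45238790-45239089, minus strand): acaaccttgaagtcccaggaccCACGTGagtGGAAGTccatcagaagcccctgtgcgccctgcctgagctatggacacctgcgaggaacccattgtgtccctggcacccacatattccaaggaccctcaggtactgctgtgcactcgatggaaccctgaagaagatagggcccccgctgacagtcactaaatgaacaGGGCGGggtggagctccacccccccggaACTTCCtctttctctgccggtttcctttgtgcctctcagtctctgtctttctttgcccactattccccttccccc
Cd63 (chr10:128909095-128909394, plus strand): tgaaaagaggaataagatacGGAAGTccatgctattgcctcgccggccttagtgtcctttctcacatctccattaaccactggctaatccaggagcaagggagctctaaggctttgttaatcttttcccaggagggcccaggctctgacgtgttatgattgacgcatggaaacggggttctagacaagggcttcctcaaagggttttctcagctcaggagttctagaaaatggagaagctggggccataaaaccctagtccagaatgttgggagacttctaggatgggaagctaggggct
The Cd9 window held 2 GC boxes and none of the other letters. That of Cd37 held 1 GC box, 2 ETS cores and 1 E-box, and that of Cd63 held 1 ETS core alone. Over all 32851 windows of this length in the table, 35.7% held a GC box, 13.6% the TATA letters, 37.4% CCAAT, 23.8% the ETS core, 7.15% the E-box and 7.81% the AP-1 letters. The GC content was 61.3% for Cd9, 57.7% for Cd37 and 49.3% for Cd63, against a median of 52.7% over all windows. These matches describe the letters alone.

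The 9 genes fell into common and rare members. Cd53 and Cd81 reached 10 TPM, the level taken here as detection, in 50 and 48 of 54 cells, and every cell had at least 1 of that pair. Cd9 reached it in 38 cells, Cd37 in 27 and Cd63 in 23. Tspan3 and Tspan4 reached it in 11 cells each and Cd82 and Cd151 in 5 each, and 28 cells had none of these 4. Taken as member-by-cell values, 44.9% were at 10 TPM or more.

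**Figure D1:**
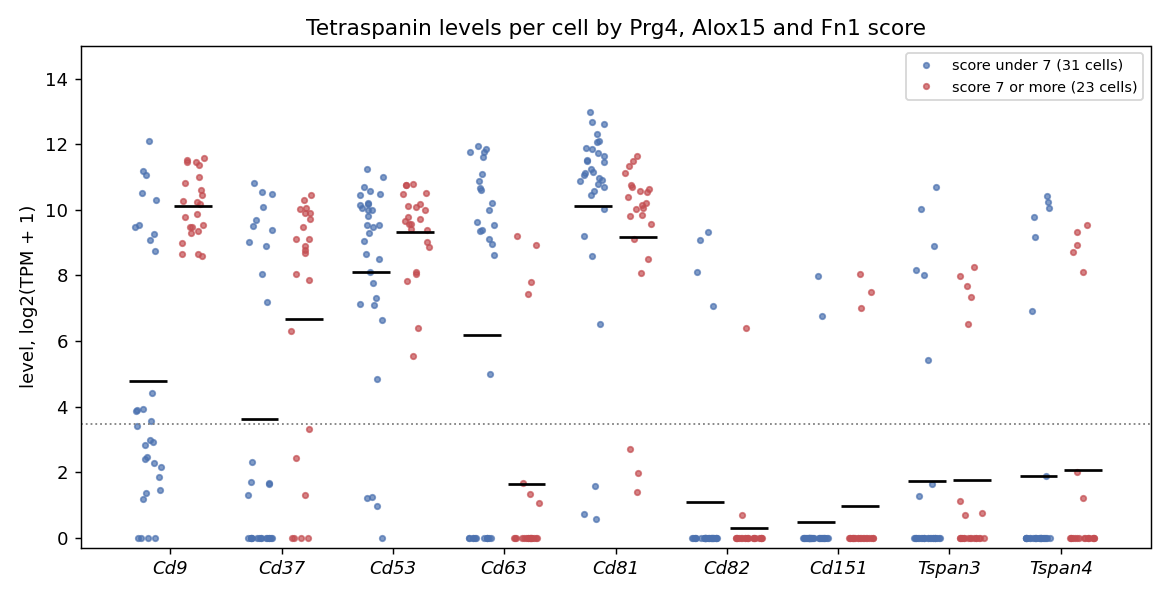
Level of each member in each cell as log2(TPM + 1), for 31 cells with a score under 7 (blue) and 23 with a score of 7 or more (red); black bars are means and the dotted line is 10 TPM. All 23 red points of Cd9 lie above the line, against 15 of 31 blue ones, and Cd63 shows 4 red and 19 blue points above it.

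Cd9 was the member most tied to the score. In the 23 high-score cells it ran from 388.5 TPM through a median of 1151 to 3040 TPM, so all of them held it. In the 31 others it ran from 0 through 9.70 to 4410 TPM. The groups overlapped, since 10 of the 31 low-score cells were at or above the lowest high-score cell. The share of cells at 10 TPM or more was 100% (exact Clopper-Pearson 95% interval 85.2 to 100%) against 48.4% (30.2 to 66.9%). Some of the low-score cells sat just above that level, and 10 of the 15 reached 100 TPM, as did all 23 high-score cells. These intervals, here and below, cover counting error only. Mean log2 levels were 10.12 ± 0.98 and 4.78 ± 3.97 (SD over 23 and 31 cells), a difference of 5.33, and 47 of the 2948 genes tested had a larger one, the 3 score genes among them. Those are the genes at 10 TPM or more in at least 10 cells, and 7 of the 9 members are among them.

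Cd63 went the other way. In the high-score cells it ran from 0 through a median of 0 to 587 TPM, and in the low-score cells from 0 through 548 to 3950 TPM. In the low-score group 15 of 31 cells exceeded the highest high-score cell. The share at 10 TPM or more was 17.4% (4.95 to 38.8%) against 61.3% (42.2 to 78.2%). Among the cells above that threshold the level was lower too, with medians of 355 TPM in 4 cells and 1172 TPM in 19. Mean log2 levels were 1.63 ± 3.20 and 6.19 ± 5.16, a difference of -4.57, and 18 tested genes had a lower one. Only the low-score group brought Cd63 past the filter of 10 cells, which favours a difference in that direction. Within the low-score group Cd63 was split sharply, with 12 cells at 0, 19 above 10 TPM and none between.

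Cd37 was the second member higher in the high-score cells. It ran from 0 through 440 to 1400 TPM there and from 0 through 1.49 to 1797 TPM in the others, so the ranges overlapped entirely. The shares at 10 TPM or more were 69.6% (47.1 to 86.8%) and 35.5% (19.2 to 54.6%). In cells that held Cd37 the level was alike, with medians of 632 TPM in 16 cells and 720 TPM in 11. The mean log2 difference was 3.06 (6.68 ± 4.01 against 3.62 ± 4.46). Cd37 also moved with library complexity: high-score cells with it had a median of 2171 genes at 10 TPM or more and those without it 1356, and low-score cells 1679 and 1308. Among cells in the range of that number shared by both groups (16 and 29 cells) the difference was 1.96, under the 2 used here as the bound of a difference, and it was 1.94 with a pseudocount of 10. Low-score cells with Cd9 had fewer genes at 10 TPM or more than those without it, with medians of 1264 and 1594. For Cd63 these medians were 1308 and 1594 in low-score cells and 1977.5 and 1877 in high-score cells.

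Of the 7 members tested, Cd9 and Cd37 were thus higher by 2 or more on the log2 scale in high-score cells and Cd63 was lower. Over all genes tested, 17.5% were higher by that much and 3.63% were lower. The median difference of all genes tested was 0.73 in favour of the high-score cells, beside 0.19 for the 7 members tested. With 0.73 subtracted from every gene the same 3 members were past 2.

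Cd53 and Cd81 were held by most cells of both groups. Cd53 ran from 45.8 through 809 to 1752 TPM in high-score cells and from 0 through 716 to 2438 TPM in low-score cells. Its mean log2 levels were 9.33 ± 1.35 and 8.11 ± 3.19, a difference of 1.22 that is smaller than the SD of either group. Cd81 ran from 1.66 through 1143 to 3214 TPM and from 0.49 through 2237 to 8158 TPM. It was above 0 in all 54 cells. The share of cells at 10 TPM or more was 87.0% (66.4 to 97.2%) and 90.3% (74.2 to 98.0%), so the groups were alike in detection, while 24 of 31 low-score cells lay above the median of the high-score cells and 9 lay above their highest. The mean log2 difference of Cd81 was -0.95 (9.16 ± 2.96 against 10.11 ± 3.30), within the SD of both groups.

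The rare members showed no difference past 2. Tspan3 reached 10 TPM in 5 of 23 high-score and 6 of 31 low-score cells, and so did Tspan4. Their mean log2 differences were 0.01 and 0.19. Where present, Tspan3 stood at 91.4 to 309 TPM in high-score cells and at 41.5 to 1667 TPM in low-score cells, and Tspan4 at 273 to 749 and 121 to 1365 TPM. Cd82 reached 10 TPM in 1 high-score cell at 83.2 TPM and in 4 low-score cells at 132 to 641 TPM. Cd151 did so in 3 cells at 127 to 262 TPM and in 2 at 107 and 252 TPM. With so few cells the intervals are wide: 4.35% (0.110 to 21.9%) and 12.9% (3.63 to 29.8%) for Cd82, and 13.04% (2.78 to 33.6%) and 6.45% (0.791 to 21.4%) for Cd151.

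The order of the members differed between the groups. By mean log2 level, high-score cells ran Cd9, Cd53, Cd81 and Cd37, followed at a distance by Tspan4 (2.08), Tspan3 (1.76), Cd63 (1.63), Cd151 (0.98) and Cd82 (0.31). Low-score cells ran Cd81, Cd53, Cd63, Cd9 and Cd37, then Tspan4 (1.89), Tspan3 (1.75), Cd82 (1.08) and Cd151 (0.48). Every step between neighbours in either order was smaller than the larger SD of the 2 genes except that from Cd37 to Tspan4 in high-score cells. Cd81 was the member with the highest TPM in 23 of 31 low-score cells, Cd63 in 4, Cd53 in 2 and Cd9 and Cd82 in 1 each. In high-score cells Cd9 and Cd81 were highest in 9 cells each, Cd53 in 4 and Cd37 in 1.

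**Figure D2:**
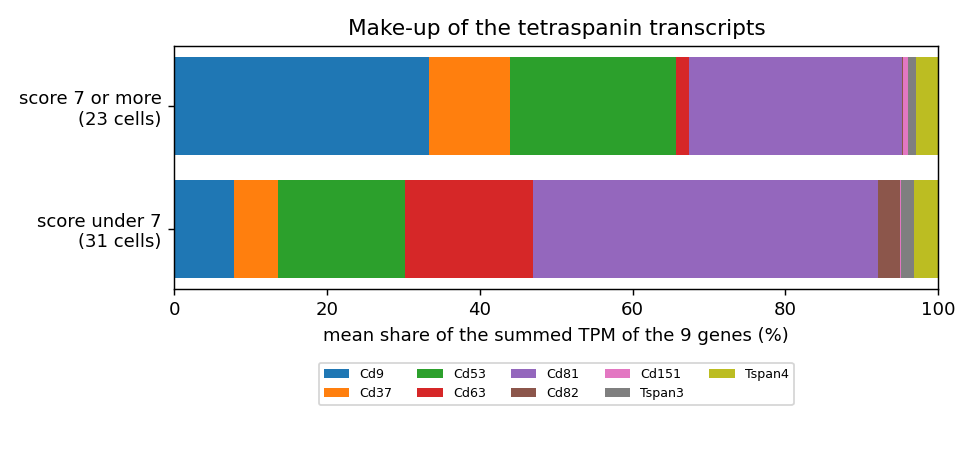
Mean share of each member in the summed TPM of the 9 genes per cell, for 31 cells with a score under 7 and 23 with a score of 7 or more. Cd9 takes 33.3% in the upper bar and 7.76% in the lower, and Cd63 takes 1.60% and 16.7%.

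The make-up of the tetraspanin transcripts shifted between the groups. As a mean over cells, Cd9 made up 33.3% ± 20.5 of the summed TPM of the 9 genes in high-score cells and 7.76% ± 17.9 in low-score cells. Cd63 made up 1.60% ± 4.13 and 16.7% ± 21.2, and Cd81 27.9% ± 17.6 and 45.2% ± 25.6. The summed level of the 9 genes itself overlapped, from 1809 through a median of 4088 to 7168 TPM in high-score cells and from 903 through 5241 to 13020 TPM in low-score cells. The number of members at 10 TPM or more per cell ran from 2 to 7 with a median of 5, and from 1 to 7 with a median of 4. The means were 4.35 ± 1.27 and 3.81 ± 1.38, and their difference of 0.54 is smaller than either SD.

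**Figure D3:**
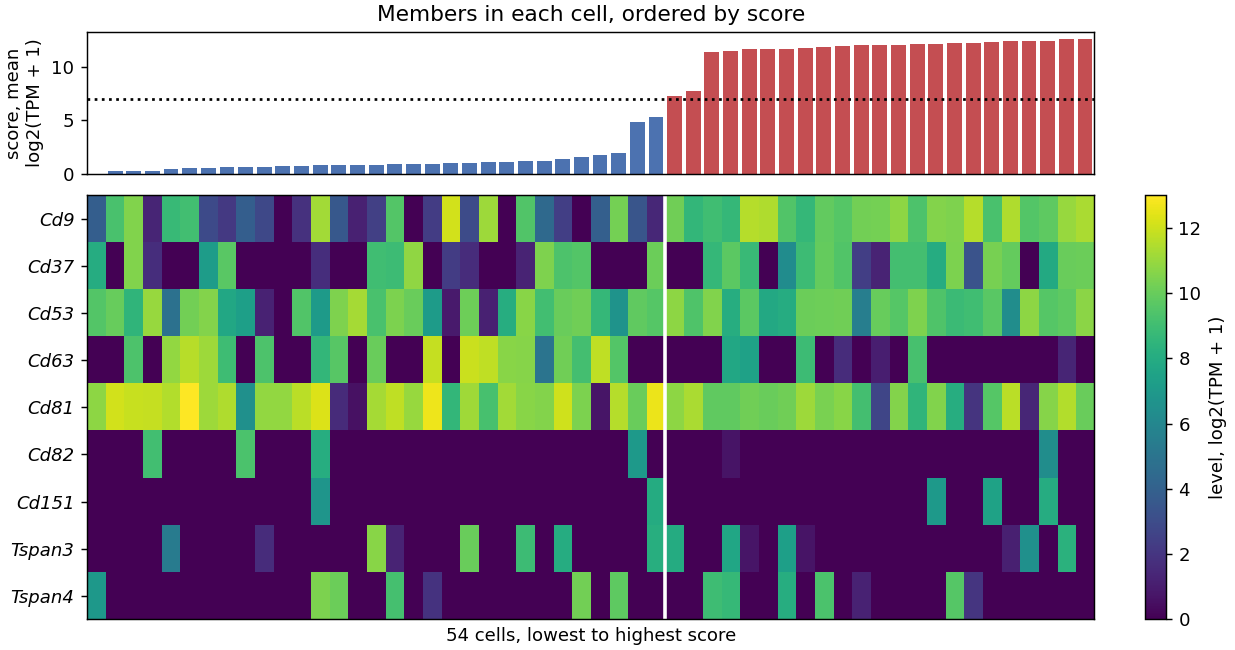
The upper panel gives the score of each of 54 cells from lowest to highest with the threshold of 7 as a dotted line, and the lower panel the level of each member in the same cells as log2(TPM + 1). Cd9 is present in every cell right of the white line, where Cd63 reaches 10 TPM in 4 of 23 cells.

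Cd9 and Cd63 were also counted together in each group. Cd9 without Cd63 was found in 19 of 23 high-score cells (82.6%) and in 5 of 31 low-score cells (16.1%). Cd63 without Cd9 was found in 0 high-score cells, where a count of 0 leaves room for up to 13.04%, and in 9 low-score cells (29.03%). All 23 high-score cells held Cd9, so that 0 was fixed and the counts there restate the share of Cd63. Limits for counts of 0, here and below, are 3 over the number of cells, an approximation and not the exact interval. Within the low-score group, where both vary, 10 cells had both, 5 had Cd9 alone, 9 had Cd63 alone and 7 had neither. If the genes were unrelated, the product of their shares gives 9.19 cells with both. Their Spearman's rho was 0.168 over these 31 cells and -0.199 over the 23 high-score cells, where all hold Cd9 and an exchange in detection could not show. The cells differ in the number of genes found, which all genes of a cell share, so rho is a description with no p-value.

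Pairs of members were also set beside all gene pairs in each group. Of the 21 pairs among the 7 tested members, 1 had a rho of -0.2 or less and 4 of 0.2 or more in low-score cells, where 11% and 18.2% of all gene pairs did. In high-score cells the counts were 4 and 3 of the 21, beside 14.3% and 22.7% of all gene pairs. Low values were thus a larger share of the member pairs than of all gene pairs in high-score cells, and high values a smaller share. In low-score cells the low values were a smaller share. These counts are small. The median rho of the member pairs was 0.033 in low-score and -0.002 in high-score cells, beside 0.027 and 0.034 over all gene pairs. Among these pairs the lowest rho was that of Cd81 and Tspan4 in high-score cells (-0.375), although all 5 cells with Tspan4 there also held Cd81. In the low-score group the lowest of the 21 was Cd9 and Cd53 (-0.242), with 13 cells holding both where the shares give 13.1. Tspan3 and Tspan4 were never found together in low-score cells (0 of 31, which allows up to 9.68%), where the shares give 1.16 cells, and were together in 2 high-score cells, where they give 1.09. All 27 cells with Cd37 held Cd53 and Cd81 as well, where the shares alone give 25 and 24.

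**Figure D4:**
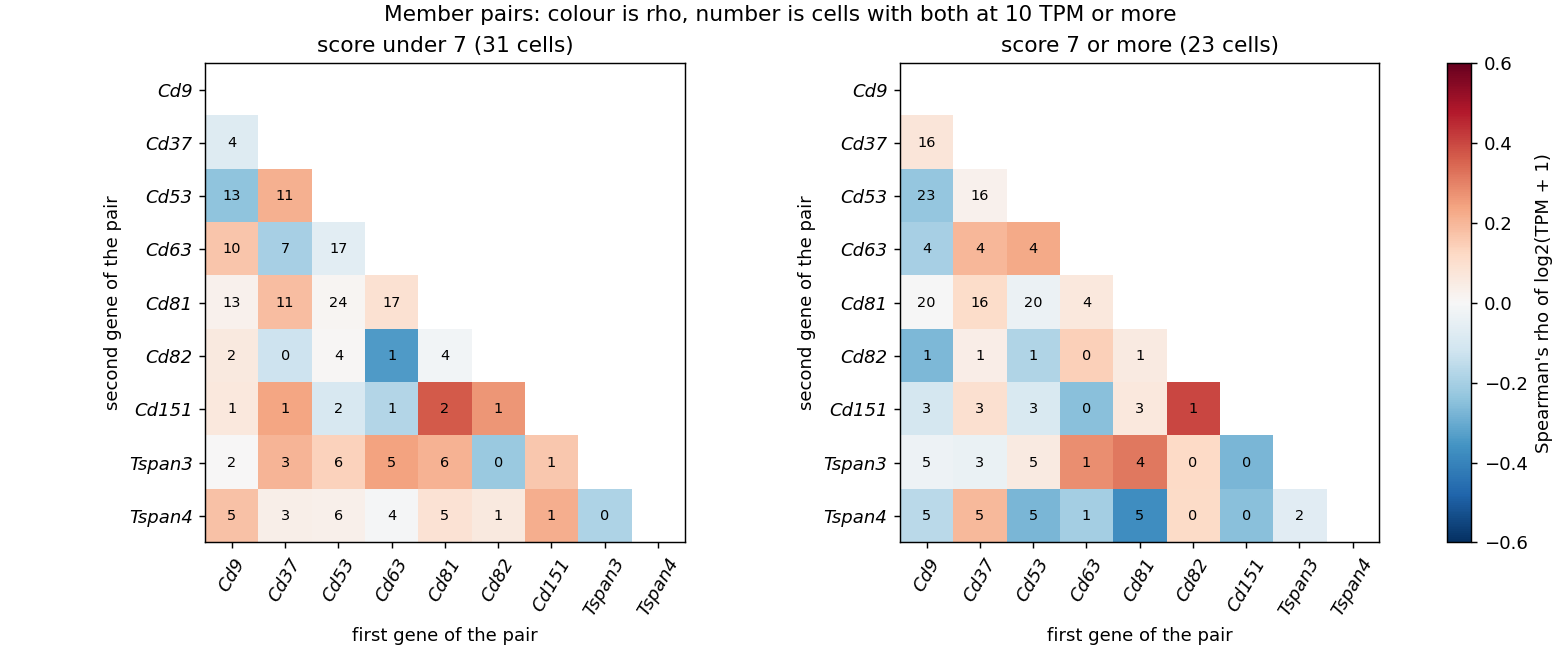
Spearman's rho of log2(TPM + 1) for each pair of members (colour) and the number of cells with both at 10 TPM or more (figures in the squares), in 31 cells with a score under 7 and in 23 with a score of 7 or more. Cd9 and Cd63 are together in 10 cells of the left panel and 4 of the right.

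Among the low-score cells, members were also set beside genes of the MHC class II and perivascular programmes. Of 24 cells with H2-Ab1 at 10 TPM or more, 24 held Cd81 and 13 held Cd63, and of 7 without it 4 held Cd81 and 6 held Cd63. The 3 low-score cells without Cd81 were cells 26, 36 and 40, and the last 2 of these are among the cells with markers of another type. Of 15 cells with Folr2, Cbr2 or Cd163 at that level 5 held Cd9 and 11 held Cd63, against 10 and 8 of the 16 cells without. Splits by other genes were made as well. Cd63 was held by 12 of 23 cells with Cd74 at 1000 TPM or more and 7 of 8 without. For Mrc1 these counts of Cd63 were 16 of 24 and 3 of 7, and for Timd4 5 of 8 and 14 of 23. Cd9 was held by 9 of 18 cells with Ccr2 or Cx3cr1 and 6 of 13 without. The share of all genes that differ as much in these splits was not computed.

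Partners of the tetraspanins were described from fixed lists. Of 11 integrin and adhesion genes 5 were tested, and 4 of them were higher by 2 or more in high-score cells, with none lower, where 17.5% and 3.63% of all genes tested were. Itga6, the laminin receptor chain that pairs with CD151 and CD9, reached 10 TPM in 18 of 23 high-score and 4 of 31 low-score cells (difference 5.71). Its partner chain Itgb1 did so in 18 and 16 cells (3.49), and Itgb2 and Itgam, the chains of complement receptor 3, in 22 and 16 and in 21 and 13 cells (5.86 and 4.29). Of these, Itga6 passed the filter of 10 cells through the high-score group alone, which favours a difference in that direction. The median difference over the 5 genes was 4.29, beside 0.73 over all genes tested. The immunoglobulin superfamily partners of CD9 and CD81 were rare: Igsf8 reached 10 TPM in 4 cells of each group and Ptgfrn in 3 high-score cells alone.

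Of the 11 genes of late endosomes and vesicles that work beside CD63, all were tested, 3 were higher by 2 or more and none was lower, where 17.5% and 3.63% of all genes tested were. The list's median difference was 0.79, close to the 0.73 of all genes tested. Rab27a, a small GTPase that docks CD63-bearing endosomes at the plasma membrane, reached 10 TPM in 15 of 23 high-score cells and in 0 of 31 low-score cells, which allows up to 9.68% (difference 4.99). It passed the filter of 10 cells through the high-score group alone, so a difference in that direction was built in. Lamp2, a lysosomal membrane protein, did so in 21 cells of each group (2.46), and Hgs, which sorts cargo at endosomes, in 9 and 3 (2.38). Sdcbp, the gene of syntenin, which binds CD63, did so in 21 and 27 cells with a difference of -0.35. The lowest differences of the list were those of Ap3d1 (-1.42, in 2 and 8 cells), a subunit of the AP-3 adaptor that sorts CD63 to lysosomes, and Tsg101 (-0.51, in 6 and 10 cells), of the ESCRT machinery.

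Of 10 myeloid receptors and antigen-presenting genes reported near tetraspanins, 9 were tested, and 4 were lower by 2 or more in high-score cells: H2-Aa (-7.72), H2-Ab1 (-8.57), H2-Eb1 (-7.98) and Cd74 (-8.85), all of MHC class II presentation. None was higher, where 17.5% of all genes tested were higher and 3.63% lower. The 4 genes of MHC class II presentation passed the filter of 10 cells through the low-score group alone, which favours a difference in that direction. The list's median difference was -1.81, which is that of Clec7a, the beta-glucan receptor dectin-1, at 10 TPM or more in 3 and 10 cells. Clec7a too passed the filter of 10 cells through the low-score group alone. Adam10, the protease moved to the surface by a subgroup of tetraspanins, reached 10 TPM in 19 high-score and 17 low-score cells (1.75), and Adam17 in 2 and 6. Adam10 was the single tested gene of its list of 3, and it was not past 2.

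Of 22 other tetraspanin genes, 11 were at 0 in all 54 cells and 5 reached 10 TPM in at least 5 cells. Tspan31 was the most common of them, in 15 of 23 high-score and 12 of 31 low-score cells (difference 1.72). Tspan14 and Tspan17, members of the subgroup that escorts ADAM10, were found in 8 and 5 and in 7 and 4 cells (1.66 and 1.55). Tspan32, a gene of blood cells that lies next to Cd81 in RefSeq, was found in 6 and 7 cells (0.49), and Tspan13 in 3 and 6 (-1.01). None of the 4 tested genes was past 2, and their median difference was 1.61.

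The genes most like each member were taken by Spearman's rho within each score group, averaged over the groups by cell number. For Cd9 these were Cct8 (0.396) and Mapk14 (0.386), for Cd37 Ndufa8 (0.546) and Cers2 (0.543), for Cd53 Clec4a1 (0.426) and Golt1b (0.414), for Cd63 Alkbh5 (0.510) and Ighm (0.450), and for Cd81 Rp2h (0.473) and Prkcd (0.472). Each is the top of about 2600 candidates over 54 cells, so values of this size are a ranking and not a finding. No other member was among the 2 closest genes of any of these 5. For the rare members the closest were Timm8b and BE692007 (Cd82), Isyna1 and Meaf6 (Cd151), Aagab and Hdac4 (Tspan3) and Sec11a and Abca9 (Tspan4), with rho from 0.464 to 0.589.

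Markers of other cell types ranged from absent to abundant. Of 8 platelet genes, 7 were at 0 in all cells and Gp9 reached 10 TPM in 1 high-score cell, with a summed level of 0 to 286 TPM in high-score and 0 in all low-score cells. All 6 mast cell or basophil and all 4 eosinophil genes were at 0 in all cells. Of 6 B cell genes 4, Cd79a, Cd79b, Pax5 and Ebf1, were at 0 in all cells, while Ighm reached 10 TPM in 1 high-score and 21 low-score cells. The 10 monocyte genes summed to 1.60 to 2796 TPM (median 182) in high-score and 5.63 to 15943 TPM (median 1359) in low-score cells, with Ly6c2, Plac8, Treml4 and Ace at 0 in all high-score cells. The summed level of the 10 alveolar macrophage genes reached 5571 TPM in high-score and 43523 TPM in low-score cells, with medians of 8.86 and 15.1 TPM. That of the 10 T or NK cell genes reached 3.75 and 7180 TPM and that of the 9 dendritic cell genes 339 and 6905 TPM, all with medians of 0. The part of these and of Ighm in the differences of Cd9, Cd37 and Cd63 was not tested. Without the 6 cells with markers of another type (22 and 26 cells left), the differences were 4.96 for Cd9, 2.67 for Cd37 and -5.23 for Cd63.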

How the data were processed

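The values the authors deposited are TPM per gene symbol, 1 table per cell, made with RSEM per the submitters' processing notes, which give no version. Per the labels' protocols the libraries came from a modified SMART-seq2 protocol and were sequenced as paired ends. The aligner, build and annotation are not given in the sources used here. TPM keeps no read totals, and none are given. This cDNA does not mark strand: Cd9, Cd81, Cd82, Cd151 and Tspan4 overlap other genes in RefSeq (GRCm38.p6, used for names and promoters), of which Gm28809 and R74862 reached 10 TPM in 1 cell each and Chid1 in 3.

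Levels were computed as log2(TPM + 1), so differences understate the change of low genes. Detection meant 10 TPM or more. All 54 cells were kept, no doublet caller was run because there are no molecule counts, and no 2 cells had identical values. Genes at 10 TPM or more in at least 10 cells were tested for a difference of 2, with no p-value, and named by rule: the 9 members, other tetraspanins at 10 TPM in at least 5 cells, partners past 2 (or the 2 highest of a list) and the 2 genes most like each member. Clec7a, Sdcbp, Ap3d1, Tsg101, the pairs singled out and the H2-Ab1 and Folr2 splits were picked with their values in view. The members and lists were chosen with earlier results of these data known. As a check of the code alone, the difference step was run on shuffled values with planted differences. The rho step was compared with that of scipy on shuffled values, with no correlation planted. Python 3.11.15, numpy 2.4.6, pandas 2.3.3 and scipy 1.17.1 were used.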

Additional observations from a re-analysis of the deposited data

How the results depend on the processing

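The number of members past a difference of 2 was 3 (Cd9, Cd37 and Cd63) under 13 of 15 alternatives and 2 under the other 2. Cd37 was the one lost, at 1.94 with a pseudocount of 10 and at 1.96 among cells of shared complexity, and the cause was not tested. The alternatives were other pseudocounts and score thresholds, scores without each gene in turn, cells near the threshold or with few genes left out, values under 10 TPM set to 0, TPM rescaled without Lyz2 or mitochondrial genes, cells with markers of another type left out and, chosen after seeing the data, the subtraction of the median difference. Over all 15 the difference of Cd9 ran from 4.20 to 6.21, that of Cd63 from -5.67 to -3.27 and that of Cd37 from 1.94 to 4.12. Those of Tspan3 (-0.72 to 0.63), Tspan4 (-1.23 to 0.50) and Cd151 (-0.23 to 1.11) changed sign. The share of member-by-cell values detected was 53.3% above 0 and 52.1% at 1 TPM or more. For Cd9 in low-score cells those thresholds gave 87.1%, and 100 TPM gave 32.3%. The rho of Cd9 and Cd63 was 0.055 in low-score cells with values under 10 TPM set to 0 and -0.210 over all cells, which pools the groups. The rho of Cd37 and Cd63 in low-score cells was -0.198, and -0.404 without the cells with markers of another type. With values under 10 TPM set to 0 it was -0.176, and the correlation of their detection alone was 0.036. In high-score cells the rho of this pair was 0.199. No paired analysis was possible because every cell carries the same label. With read totals not known, a gene listed at 0 may lie under the depth reached.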

Other observations

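The low range of values, above 0 and under 10 TPM, was filled unevenly by the members. Cd9 lay there in 12 of 31 low-score cells and in 0 of 23 high-score cells. Cd63 lay there in 0 low-score and 3 high-score cells, and Cd37 in 5 and 3. Over all genes the median cell had 45.6% of its values above 0 in that range in the low-score group and 34.9% in the high-score group. What such values are was not tested.

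The 4 cells nearest the score threshold were not alike in Cd9. Cells 31 and 20, just above it, held 1151 and 388.5 TPM of Cd9, and cells 1 and 29, just below it, held 9.70 and 1.77 TPM. All 4 were at 0 for Cd63.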
